A study of Arabidopsis thaliana with 24 samples.

Results

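A group of 105 nuclear genes had no read count in any of the 12 Col-0 libraries and a mean of at least 1 CPM (a gene's count scaled to a common total of nuclear gene counts per library) in the 12 IP-Svi-0 libraries. They were chosen by these values from 33323 nuclear genes of Arabidopsis thaliana, of which 19436 reached 1 CPM in IP-Svi-0, so 0.540% of the genes at that level had no count in Col-0. IP-Svi-0 is a natural accession described by the submitters as early flowering, and Col-0 is the reference accession whose genome both were aligned to. Whole seedlings of both accessions, with no mutation or transgene named in the labels, were grown on MS medium of reduced strength after 3 days of stratification, and RNA was sequenced from strand-specific libraries. IP-Svi-0 and Col-0 each had 3 libraries at 10 °C, 3 at 16 °C, 3 at 23 °C and 3 at 27 °C. Seedlings grown at 10, 16, 23 and 27 °C were collected when they had spent 23, 12, 8 and 7 days in their growth rooms, listed in that order, which means that age and temperature cannot be told apart.

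Natural accessions of a species differ in which genes they carry intact and which they transcribe. Pseudogenes are copies of genes that no longer encode a full protein, and in Arabidopsis they are frequent in the gene-poor regions around the centromeres. Reads of every accession are placed on the genome of Col-0, so a gene that only another accession carries cannot receive a count under its own name, while reads from a related copy can be placed on a similar sequence.

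The members include sets of similar sequences, and 3 sets are shown because they bear on which gene a read can be counted at. The first holds 100 bases of the member with the most counts, pseudogene AT1G37057 (chr1:14096098-14096197, plus strand), and the matching bases of pseudogenes AT1G42110 (chr1:15727024-15727123, minus strand) and AT2G15940 (chr2:6944548-6944647, minus strand), both also members. Capitals mark bases that differ from AT1G37057. All coordinates and sequences are from the RefSeq annotation and genome of build TAIR10.1, and each sequence is written 5′ to 3′ on the strand given.
AT1G37057: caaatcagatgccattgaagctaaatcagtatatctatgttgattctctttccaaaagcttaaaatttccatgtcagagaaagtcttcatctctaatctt
AT1G42110: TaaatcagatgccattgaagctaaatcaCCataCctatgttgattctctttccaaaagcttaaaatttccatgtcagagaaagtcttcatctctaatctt
AT2G15940: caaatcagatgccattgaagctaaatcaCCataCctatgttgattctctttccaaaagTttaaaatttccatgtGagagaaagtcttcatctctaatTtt

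In this window AT1G42110 differed from AT1G37057 at 4 bases and AT2G15940 at 6 bases. Over the longest alignment of the gene spans, AT1G42110 was 96.8% identical to AT1G37057 over 772 bp, AT2G15940 was 95.4% identical to it over 610 bp, and AT1G42110 was 98.1% identical to AT2G15940 over 1113 bp. The 3 genes had 529, 14 and 12 counts over the IP-Svi-0 libraries, in the order AT1G37057, AT1G42110 and AT2G15940, and 0 in Col-0. AT1G37057 therefore had far more counts than these relatives in the same libraries. Sequence elsewhere in the genome at 95% identity or more covered 38.6% of its exon bases. For AT1G42110 it covered 95.9% and for AT2G15940 100%. Reads with more than 1 alignment are not in these counts, so the counts do not compare the levels of the 3 genes.

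The second set is a pair of coding genes of unknown function, AT2G40955 (chr2:17094654-17094753, plus strand) and AT4G15096 (chr4:8622157-8622256, plus strand), shown within their coding sequence. Capitals mark bases that differ from AT2G40955.
AT2G40955: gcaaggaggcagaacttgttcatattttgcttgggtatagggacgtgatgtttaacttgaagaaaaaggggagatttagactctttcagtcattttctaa
AT4G15096: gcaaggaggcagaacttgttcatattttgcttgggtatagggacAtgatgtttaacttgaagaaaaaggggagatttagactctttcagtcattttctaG

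The window, chosen in the same way within the coding sequence, holds 2 differences, and the pair had 7 mismatches over 2391 aligned bases (99.7% identity). AT2G40955 had 10 counts and AT4G15096 had 9 counts over the IP-Svi-0 libraries. Reads with more than 1 alignment stand on a line of their own in the deposited table, so what such a pair received is known only from reads that told its genes apart.

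The third set is an exact repeat. AT1G24807, annotated as a glutamine amidotransferase of type 1, holds 100 exon bases on the minus strand (chr1:8771968-8772067) that also occur unchanged in AT1G24909 (chr1:8786347-8786446), AT1G25083 (chr1:8808876-8808975) and AT1G25155 (chr1:8823254-8823353).
AT1G24807: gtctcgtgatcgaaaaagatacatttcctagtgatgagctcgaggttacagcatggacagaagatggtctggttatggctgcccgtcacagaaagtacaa

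AT1G24807 was identical to AT1G24909 and to AT1G25155 over 2130 bp and to AT1G25083 over 1895 bp. AT1G24807 had 32 counts in IP-Svi-0, while these 3 copies had 0 counts in either accession. A more distant relative on the same chromosome, ASB1 (AT1G25220), which encodes a subunit of anthranilate synthase in tryptophan synthesis, averaged 3.91 ± 3.21 CPM in IP-Svi-0, against 20.6 ± 8.42 CPM for Col-0 (SD, n = 12 each, not tested here). A further relative on chromosome 5, AT5G57890, did not show such a gap, with 24 counts in each accession. Its mean was 3.02 ± 2.83 CPM for IP-Svi-0, against 3.41 ± 3.19 CPM for Col-0 (SD, n = 12 each, not tested here). Identical sequence occurs elsewhere in the Col-0 genome, to which both accessions were aligned. Its part in the absence of Col-0 counts at AT1G24807 was not tested.

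The libraries held 22215651 to 24308874 reads, and 1.41 to 3.61% of them were counted at genes, so the depth at genes was low. Reads that fell on no annotated feature were the largest class, with 69.9 to 86.3% of each IP-Svi-0 library and 59.6 to 89.8% of each Col-0 library. Nuclear gene counts ranged over 459029 to 867526 per IP-Svi-0 library (7483289 in all) and 327795 to 746165 per Col-0 library (6441325 in all). Reads not aligned to the Col-0 genome made up 1.35 to 1.98% of each IP-Svi-0 library and 0.364 to 0.533% of each Col-0 library. Reads with more than 1 alignment were 2.67 to 21.3% of each IP-Svi-0 library and 3.40 to 35.8% of each Col-0 library. The libraries are stranded and no source used here gives the strand setting of the counting, so a count at a gene may come from the strand opposite to it, and a gene without a count in Col-0 may still have had reads that were not counted. All 4 leaf markers and 3 of 4 root markers had counts in all 24 libraries, while the root gene EXPA7 was at 0 in some of both accessions. Of the 4 flower markers AP1 and AG had no count, AP3 had 1 IP-Svi-0 and 2 Col-0 counts, and PI had 0 IP-Svi-0 counts and 1 Col-0 count. Nothing in the labels tells if the libraries of a group came from separate cultures, so p-values measure the spread between these libraries, which may be technical. In whole seedlings, fewer cells that transcribe a gene and less RNA per cell cannot be told apart.

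This depth limits what absence in Col-0 can mean. Over the 12 Col-0 libraries together, 3 counts, the limit that a count of 0 allows, correspond to 0.466 CPM, and 1 CPM corresponds to 6.44 counts. This covers counting error only. The members had 3064 counts in all over the IP-Svi-0 libraries and 0 over the Col-0 libraries, and AT1G37057 and AT4G20365 held 893 (29.1%) of them. The median member had a mean of 1.93 CPM and 15 counts over the 12 IP-Svi-0 libraries. A count in each IP-Svi-0 library was seen for 11 members, in at least 10 libraries for 37, and in 6 or fewer for 32. No member had counts in fewer than 3 IP-Svi-0 libraries.

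**Figure D1:**
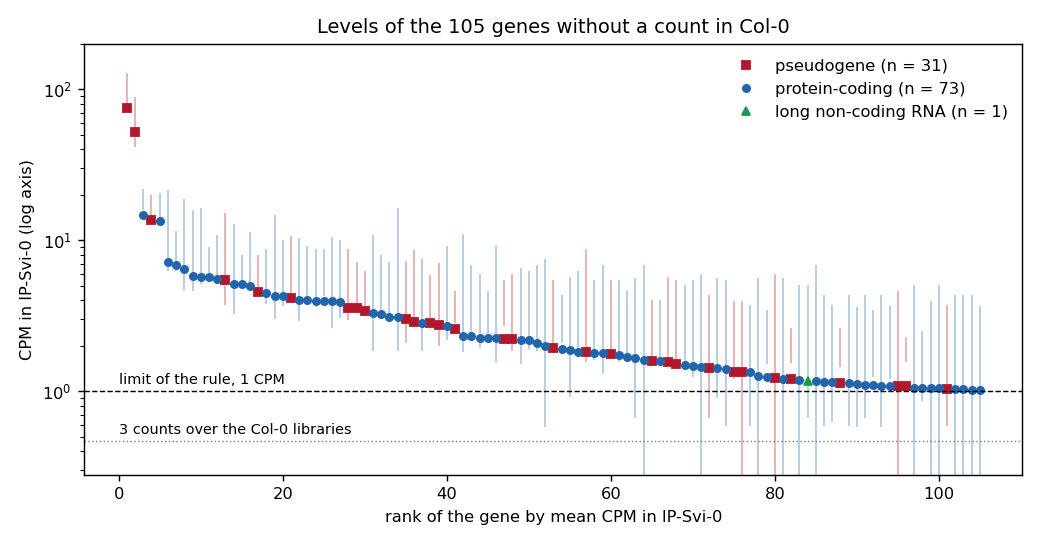
Mean CPM of each of the 105 genes over the 12 IP-Svi-0 libraries, by rank on a log axis (points, coloured by annotated type), with a line from the median library to the highest one, medians below the axis being drawn at its lower end. AT1G37057 and AT4G20365 stand above 50 CPM, 5 genes are at 10 CPM or more and 54 lie between 1 and 2 CPM. The dashed line is the limit of the rule and the dotted line marks 3 counts over the Col-0 libraries.

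By level, 5 members had a mean of 10 CPM or more, 11 of 5 to 10 CPM, 35 of 2 to 5 CPM and 54 of 1 to 2 CPM. Members were 0.0477% of all nuclear genes at 10 CPM or more, 0.299% at 5 to 10 CPM, 1.01% at 2 to 5 CPM and 2.97% at 1 to 2 CPM. The share without a Col-0 count was thus highest where few counts were expected. Just inside the limit were AT1G09410 at 1.03 CPM, AT1G53330 at 1.03 CPM, both pentatricopeptide repeat genes, and the F-box gene AT5G41840 at 1.02 CPM. Just outside were AT4G25434 at 0.990 CPM, AT5G05220 at 0.985 CPM and AT2G12025 at 0.980 CPM.

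The 5 members at 10 CPM or more were mostly without a known function. AT1G37057 (chromosome 1, 14094306 to 14097437, plus strand) averaged 75.0 ± 28.8 CPM in IP-Svi-0 (SD, n = 12). Over the pooled libraries it had 70.7 CPM in IP-Svi-0, where 3 counts over the pooled Col-0 libraries would give 0.466 CPM. AT4G20365 (chromosome 4, 10993391 to 10998715, plus strand), also a pseudogene, averaged 52.4 ± 25.2 CPM and had 48.6 CPM over the pooled IP-Svi-0 libraries. AT5G12960, annotated with domain DUF1680, averaged 14.7 ± 5.34 CPM, pseudogene AT3G44793 averaged 13.6 ± 5.49 CPM, and the uncharacterized gene AT5G41660 averaged 13.4 ± 4.80 CPM. All 5 had a count in each of the 12 IP-Svi-0 libraries, as had 11 of the 105 members. The gap to Col-0 is what the rule selected, and its values are given without a test.

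Per kb of exon the order differed. AT1G37057 was again highest, at 23.95 CPM per kb, and AT5G06043, an uncharacterized coding gene with 369 bp of exon, came next with 19.4 CPM per kb. AT5G39640, a putative endonuclease or glycosyl hydrolase with 231 bp, had 17.5 CPM per kb. AT3G44793 had 13.6, the uncharacterized AT5G03400 had 11.1, the two-component phosphorelay mediator AT4G04402 had 9.93 and AT4G20365 had 9.84. The median member had 1.51 CPM per kb, and the lowest had 0.205.

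Of the 105 members, 73 were annotated as protein-coding, 31 as pseudogenes (25 with the plain term and 6 as transcribed pseudogenes) and 1 as a long non-coding RNA. Pseudogenes made up 29.5% of members and 1.22% of the 19420 annotated nuclear genes with at least 1 CPM in IP-Svi-0. The opposite set, 261 annotated genes without a count in IP-Svi-0 and with at least 1 CPM in Col-0, held 21.8% pseudogenes. None of the members was classed as a transposable element by its product text, though most of the pseudogenes carry no description beyond uncharacterized protein. The 6 transcribed pseudogenes were described, and they derive from a receptor kinase (AT3G46250), a galactose oxidase or kelch repeat protein (AT4G21605), a nuclease (AT3G44030), a myosin-like protein (AT3G43310), a reticulon (AT2G12050) and a RAB GTPase homologue (AT2G04120).

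**Figure D2:**
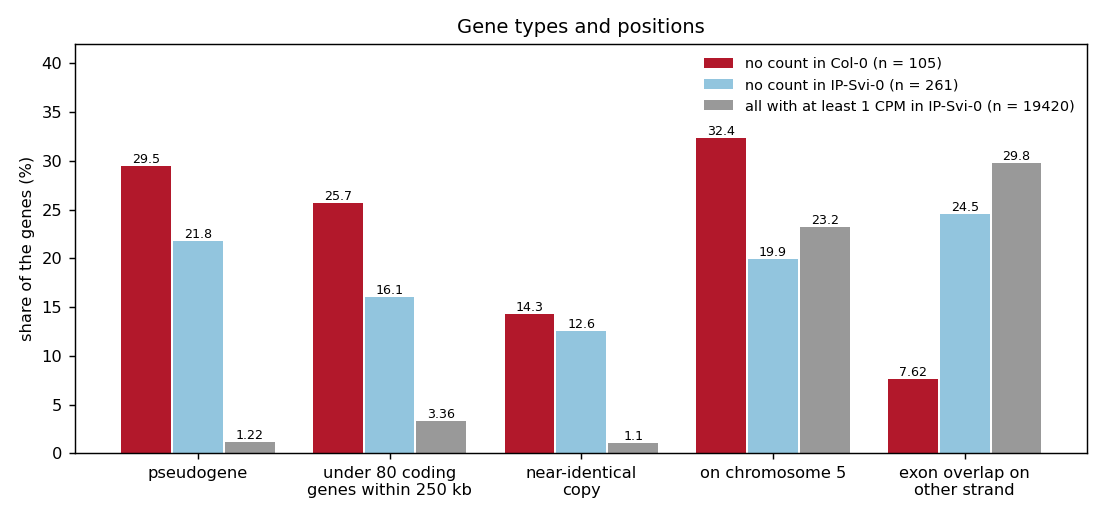
Share of genes, in percent, with each of 5 features for the 105 genes without a count in Col-0, the 261 annotated genes without a count in IP-Svi-0 and the 19420 annotated nuclear genes with at least 1 CPM in IP-Svi-0. Pseudogenes (29.5 against 1.22%), gene-poor surroundings (25.7 against 3.36%) and near-identical copies (14.3 against 1.10%) are more frequent among the genes without a Col-0 count than among all such genes. The sets were not matched for CPM level.

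Members lay in gene-poor regions more often than the background did. Within 250 kb to either side, 27 members (25.7%) had fewer than 80 coding genes, as had 42 genes of the opposite set (16.1%) and 653 of the 19420 (3.36%). Among pseudogenes the counts were 16 of 31 members and 66 of 237 background genes, and among other genes 11 of 74 members (14.9%) and 587 of 19183 (3.06%). AT1G37057 had 25 coding genes in its window and the B3 factor gene AT5G32460 had 7. These are descriptions of chosen genes, not matched to the background for CPM level, and carry no test. The members fell on chromosomes 1 to 5 as 18, 18, 16, 19 and 34, and chromosome 5 held 32.4% of members and 23.2% of the background. Of the 16 members at 5 CPM or more, 8 (50%) were on chromosome 5, against 23.4% of all annotated nuclear genes at that level in IP-Svi-0.

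Most neighbours of members were not members. Of their 210 neighbouring genes in the table, 122 (58.1%) had a count in Col-0, compared with 70.2% of all nuclear genes. Members themselves were 8 of the 210, where all 33323 nuclear genes held 105 members. Some neighbours had many IP-Svi-0 and few Col-0 counts, such as AT2G12040 next to AT2G12050 (1715 and 4). Others went the other way, such as AT1G65190 next to AT1G65200 (0 and 167). Pairs of members within 20 kb of each other numbered 8, and 4 of them were next to each other. One was AT5G47260, a putative disease resistance gene, and ADR1-L3 (AT5G47280), a member of the ADR1 family of helper immune receptors, separated by 640 bp on chromosome 5 (19189411 to 19195559). AT5G47260 averaged 5.74 ± 4.39 CPM and ADR1-L3 3.94 ± 2.67 CPM in IP-Svi-0 (SD, n = 12 each). The others were the thioredoxin-like AT4G12170 with pseudogene AT4G12180, 832 bp apart, pseudogenes AT5G35331 and AT5G35332, 749 bp apart, and pseudogene AT5G34851 with the plant thionin gene AT5G34828, 2071 bp apart. In the pairs RABH1a with AT5G65005, XTH25 with AT5G57567, and AT4G21605 with AT4G21640, a gene in between had counts in both accessions. Between WRKY59 and AT2G21920, 2 genes had 1 count and 0 counts in IP-Svi-0 and none in Col-0.

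Exons of 8 members (7.62%) overlapped an exon on the other strand, against 29.8% of the background. The long non-coding RNA AT5G05435 lies opposite the RNA-binding protein gene AT5G05430 over 68 bp of exon. AT5G05435 averaged 1.17 CPM in IP-Svi-0, and its partner averaged 26.8 ± 13.7 CPM in IP-Svi-0, against 51.5 ± 14.1 CPM for Col-0 (SD, n = 12 each). The partner of AT1G24807 had 1 IP-Svi-0 count and 3 Col-0 counts. None of the 16 members at 5 CPM or more had such an overlap, against 33.5% of all annotated nuclear genes at that level in IP-Svi-0. The part of the rule itself in these shares was not tested.

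A near-identical copy elsewhere in the Col-0 nuclear genome, at 95% identity or more over at least 50% of the exon bases in alignments of 100 bp or more, was found for 15 members (14.3%), for 33 of the opposite set (12.6%) and for 214 of the 19420 (1.10%). Among pseudogenes it was found for 10 of 31 members (32.3%) and 23 of 237 background genes (9.70%), and among other genes for 5 of 74 members (6.76%) and 191 of 19183 (0.996%). Any alignment of that kind was found for 28 members (26.7%) and 5.16% of the background. AT1G52960, a pseudogene with 11 counts in IP-Svi-0, matched pseudogene AT3G43350 at 96.2% identity over 1092 bp. AT3G43350 averaged 143 ± 72.5 CPM in IP-Svi-0 (SD, n = 12) and had 1 Col-0 count, which kept it out of the set. AT2G35970, a late embryogenesis abundant protein gene with 8 counts, matched NHL22 (AT4G09590), which had 86 IP-Svi-0 counts and 6 Col-0 counts. AT3G44793 matched AT1G59770 at 97.3% over 856 bp, and AGL81 matched AT5G39810 at 95.8% over 1070 bp. The copies of AT3G44793 had 1 IP-Svi-0 count and 1 Col-0 count in all, and that of AGL81 had none.

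The coding members were spread over many families. By product text, 8 were DNA- or RNA-binding, 5 belonged to secondary metabolism, 3 were disease resistance genes, 2 kinases, 2 F-box genes and 2 C1 domain genes, and 1 each was a cysteine-rich peptide and a TRAF-like gene. A further 12 were uncharacterized and 37 belonged to other families. In the background, DNA- or RNA-binding genes were 6.45% (7.62% of members), secondary metabolism 3.04% (4.76% of members), disease resistance genes 0.639% (2.86% of members) and kinases 5.38% (1.90% of members). Disease resistance genes were 8.43% of the opposite set.

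The disease resistance genes were AT5G47260 and ADR1-L3, described above, and AT3G51570 of the TIR-NBS-LRR class (2.20 ± 2.29 CPM). The receptor-like kinase AT5G39000, which carries a malectin domain, averaged 5.81 ± 4.98 CPM and the lectin kinase AT3G59740 1.92 ± 1.61 CPM. Of genes that act in protein turnover, the Cullin family gene AT4G12100 had a count in all 12 libraries (6.89 ± 3.08 CPM), and AT1G65200, related to ubiquitin hydrolases, averaged 5.55 ± 3.45 CPM (SD, n = 12 for each). Per kb of exon, AT5G39000 had 2.04 CPM, AT1G65200 1.68 CPM and the F-box gene AT2G21920 1.32 CPM.

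In secondary metabolism the O-methyltransferase AT1G51990 averaged 4.49 ± 2.96 CPM and the terpenoid cyclase AT3G29110 3.98 ± 2.85 CPM (SD, n = 12 each). The dioxygenase AT3G12900 averaged 1.88 CPM and the methyltransferase AT2G32160 1.04 CPM. Both C1 domain genes, which bear zinc-binding repeats, were low, with AT1G55390 at 2.70 CPM and AT5G55770 at 1.49 CPM. Of the pseudogenes with no description, AT1G43060 averaged 5.44 ± 4.32 CPM but had only 0.372 CPM per kb, and AT5G35332 averaged 4.55 ± 1.94 CPM with a count in all 12 libraries (SD, n = 12 each).

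Among the DNA-binding members were AGL36 and AGL81, MADS-box genes of type I, AT2G41470, a further agamous-like gene, the B3 factor AT5G32460, the winged-helix factor AT4G19630, the MYB gene TDF1, which acts in tapetum development, and WRKY59. AT5G32460 had a count in all 12 IP-Svi-0 libraries (5.11 ± 1.76 CPM, SD, n = 12). AT4G19630 averaged 4.26 ± 3.26 CPM and AGL81 3.32 ± 3.50 CPM (SD, n = 12 each). AT2G41470 averaged 2.34 CPM, TDF1 1.73 CPM and WRKY59 1.16 CPM. Genes linked to abscisic acid were PYL13, of its receptor family, at 1.15 CPM and HVA22B, of a stress-induced family, at 2.26 CPM. Genes of transport and signalling were UPS1, a ureide permease, at 1.68 CPM, GLR2.2, a glutamate receptor-like channel, at 1.05 CPM, and RABH1a, a small GTPase, at 1.05 CPM. The cell wall enzyme gene XTH25 averaged 1.65 CPM, the histone deacetylase homologue hda10 1.59 CPM, the cytochrome P450 CYP705A24 1.26 CPM, SRS8, a SHI family factor, 1.13 CPM, and EDA32 1.10 CPM. Each of these genes with a symbol, except AGL36 and AGL81, rests on 8 to 16 counts over the 12 IP-Svi-0 libraries.

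Temperature within IP-Svi-0 was not used by the rule and was tested for each gene. In the test across all genes with enough counts (10097, edgeR's quasi-likelihood test with Benjamini-Hochberg adjustment, called at an adjusted p under 0.05), 3 members were included, AT1G37057, AT4G20365 and AT3G44793, and the rest had too few counts. These 3 passed through their IP-Svi-0 libraries alone. Any difference among the 4 temperatures was called for 2 of the 3, AT4G20365 (adjusted p = 0.00114) and AT1G37057 (adjusted p = 0.0132), against 16.5% of all genes tested. The call for AT1G37057 was lost without replicate 1 (adjusted p = 0.0583) or replicate 2 (adjusted p = 0.0669) at 10 °C.

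AT4G20365 was low in the cool and high in the warm libraries. It had 26.5, 29.5 and 29.3 CPM at 10 °C, 30.4, 41.6 and 31.2 CPM at 16 °C, 76.2, 80.2 and 87.4 CPM at 23 °C and 65.8, 89.3 and 41.6 CPM at 27 °C. All 6 libraries at 10 and 16 °C lay below the 3 at 23 °C, while those at 27 °C spread over a wide range. It was lower at 10 than at 23 °C (log2 difference -1.58, SE 0.32, adjusted p = 0.000804, edgeR) and lower at 16 than at 23 °C (log2 difference -1.37, SE 0.32, adjusted p = 0.0271, edgeR). At 27 against 23 °C the log2 difference was -0.52 (SE 0.30, adjusted p = 0.798, edgeR). The call at 16 °C was lost without any 1 of 5 libraries, replicate 1 or 3 at 16 °C or any of the 3 at 23 °C (adjusted p 0.0515 to 0.130).

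AT1G37057 had 46.1, 39.0 and 49.9 CPM at 10 °C, 43.7, 56.1 and 78.9 CPM at 16 °C, 95.9, 90.2 and 93.3 CPM at 23 °C and 107, 129 and 70.7 CPM at 27 °C. The libraries at 10 °C did not overlap those at 23 °C. It was lower at 10 than at 23 °C (log2 difference -1.12, SE 0.30, adjusted p = 0.0111, edgeR), a call lost without replicate 1 or 2 at 10 °C or replicate 3 at 23 °C (adjusted p 0.0554 to 0.0678). At 16 against 23 °C the log2 difference was -0.79 (SE 0.30, adjusted p = 0.203) and at 27 against 23 °C -0.06 (SE 0.29, adjusted p = 0.989, edgeR for both). AT3G44793 passed no test, with log2 differences of -0.93 (SE 0.54, adjusted p = 0.258), -0.88 (SE 0.55, adjusted p = 0.464) and -0.79 (SE 0.54, adjusted p = 0.839) at 10, 16 and 27 against 23 °C.

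Of the members tested, 2 of 3 were lower and 0 were higher at 10 than at 23 °C, where 9.98% of all genes tested were lower and 5.77% higher. At 16 against 23 °C 1 of 3 was lower and 0 higher, against 0.624 and 0.168% of all genes. At 27 against 23 °C no member and no gene (0%) was called by edgeR, while 681 genes and 0 members had an unadjusted p under 0.05 and DESeq2 called 12 genes. The 3 comparisons share the 23 °C libraries. A gene without Col-0 counts can pass the filter through the IP-Svi-0 libraries of 1 temperature. Other genes can also pass through their Col-0 libraries, so the shares of these 3 genes and of all genes are not a like comparison. These 3 genes do not stand for the members with fewer counts.

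**Figure D3:**
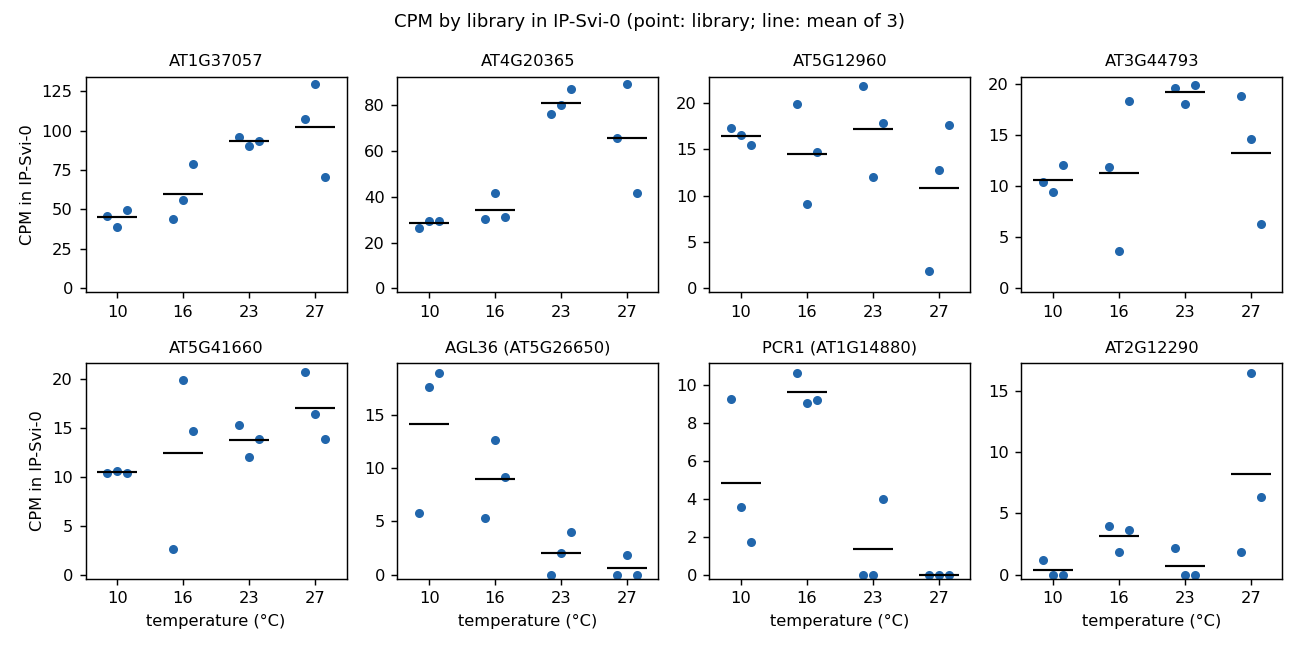
CPM in each IP-Svi-0 library (points) and the mean of 3 libraries (lines) at 10, 16, 23 and 27 °C for the 5 genes of highest mean CPM and 3 further genes called under the lower count filter. AT4G20365 and AT1G37057 are lower at 10 than at 23 °C, and AGL36 reaches 18.9 CPM at 10 °C and at most 1.82 CPM at 27 °C. All 12 Col-0 libraries were at 0 for each gene.

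When the filter was set to a mean of 1 CPM in IP-Svi-0 instead, all 105 members were among 19541 genes tested. Any difference was then called for 5 members, against 9.08% of all genes: AT4G20365 (adjusted p = 0.000519), AGL36 (adjusted p = 0.00107), PCR1 (adjusted p = 0.00558), AT1G37057 (adjusted p = 0.0123) and AT2G12290 (adjusted p = 0.0467, edgeR for all). An unadjusted p under 0.05 was found for 17 of the 105 members and for 20.5% of all genes. At 10 against 23 °C 1 member was higher and 2 lower, where 3.32% of all genes were higher and 4.53% lower. At 16 against 23 °C 0 were higher and 1 lower, where 0.118% of all genes were higher and 0.389% lower. At 27 against 23 °C 0 members and 0.0256% of all genes were called, and 4 members and 5.83% of all genes had an unadjusted p under 0.05. These counts were not matched for count level, and whether the members differ from other genes in the share called was not tested.

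AGL36 (AT5G26650, chromosome 5, 9343785 to 9345011), a MADS-box gene known from the endosperm of seeds, was the member called higher in the cold. It had 5.76, 17.7 and 18.9 CPM at 10 °C, 5.29, 12.7 and 9.18 CPM at 16 °C, 0, 2.01 and 3.97 CPM at 23 °C and 0, 1.82 and 0 CPM at 27 °C. The counts were 31, 16, 3 and 1 in order of temperature, and every library at 10 and 16 °C exceeded every one at 23 and 27 °C. At 10 against 23 °C the log2 difference was 2.65 (SE 0.80, adjusted p = 0.0246, edgeR). The call at 10 °C was lost without replicate 2 or 3 at 10 °C or replicate 1 or 2 at 23 °C (adjusted p 0.0794 to 0.144), while that for any difference was kept without each single IP-Svi-0 library (adjusted p 0.000309 to 0.0151).

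PCR1 (AT1G14880), a membrane protein of cadmium resistance, had 9.22, 3.54 and 1.72 CPM at 10 °C, 10.6, 9.04 and 9.18 CPM at 16 °C, 0, 0 and 3.97 CPM at 23 °C and 0 CPM in all 3 libraries at 27 °C. It held 12, 18, 2 and 0 counts in that order, so the cool libraries held nearly all of them, and no temperature passed the test against 23 °C. At 16 against 23 °C its log2 difference was 2.55 (SE 0.95, adjusted p = 0.259, edgeR), although the 16 °C libraries did not overlap those at 23 °C. AT2G12290, an uncharacterized gene on chromosome 2 with 23 counts, had 1.15, 0 and 0 CPM at 10 °C, 3.97, 1.81 and 3.67 CPM at 16 °C, 2.18, 0 and 0 CPM at 23 °C and 1.88, 16.4 and 6.31 CPM at 27 °C. Its call for any difference was lost without any 1 of 8 IP-Svi-0 libraries (adjusted p 0.0513 to 0.390) and rested most on replicate 2 at 27 °C.

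The following members passed no test and were chosen after their values were seen, so their counts are given as values only. AT3G48640, an uncharacterized gene, had 19, 17, 3 and 3 counts at 10, 16, 23 and 27 °C, the chitinase-like AT4G19770 had 9, 1, 0 and 0, and the Cullin family gene AT4G12100 had 23, 13, 7 and 10. GASA3, a gibberellin-stimulated peptide gene, had 1, 1, 2 and 11 counts, ATPXG2, a peroxygenase gene, had 1, 3, 2 and 10, XTH25 had 0, 3, 2 and 7, and GLR2.2 had 0, 0, 1 and 7. AT5G12960, next to the top pair by mean CPM, had 17.3, 16.5 and 15.5 CPM at 10 °C, 19.9, 9.04 and 14.7 CPM at 16 °C, 21.8, 12.0 and 17.9 CPM at 23 °C and 1.88, 12.8 and 17.7 CPM at 27 °C. Its libraries overlapped at all temperatures. The uncharacterized AT5G41660 had 10.4, 10.6 and 10.3 CPM at 10 °C, 2.65, 19.9 and 14.7 CPM at 16 °C, 15.2, 12.0 and 13.9 CPM at 23 °C and 20.7, 16.4 and 13.9 CPM at 27 °C. Its 10 °C libraries lay below those at 23 and 27 °C and inside the range at 16 °C.

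Medians of summed tissue markers differed between temperatures in IP-Svi-0, though some ranges overlapped. The summed level of 4 seed genes (CRU3, OLEO1, 2S3 and CRA1) had medians of 24.8, 378, 341 and 873 CPM at 10, 16, 23 and 27 °C in IP-Svi-0 and of 76.9, 92.9, 501 and 40.4 CPM in Col-0. Over all temperatures it ranged over 22.4 to 1023 CPM in IP-Svi-0 libraries and 13.9 to 751 CPM in Col-0 libraries. CRU3 and CRA1 had counts in all 24 libraries, while OLEO1 and 2S3 were at 0 in some libraries of both accessions. By its medians this seed sum was lowest at 10 °C and highest at 27 °C in IP-Svi-0. CRU3 and CRA1 held 2236 and 645 of its 2972 IP-Svi-0 counts. The seed sum at 10 °C (22.4 to 152 CPM) overlapped that at 16 °C (112 to 400 CPM) in IP-Svi-0. The sum of 4 leaf genes had medians of 27471, 17320, 10726 and 9685 CPM in IP-Svi-0, and that of 4 root genes 89.7, 44.0, 36.1 and 51.0 CPM. In Col-0 the leaf medians were 10243, 6620, 9048 and 8100 CPM and the root medians 46.3, 27.5, 29.5 and 37.7 CPM. The IP-Svi-0 root sum at 16 °C (41.6 to 106 CPM) covered its range at 10 °C (80.7 to 94.7 CPM). The part of these markers in the temperature patterns of the members was not tested.

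By mean CPM, 22 members were highest at 10 °C, 17 at 16 °C, 27 at 23 °C and 39 at 27 °C. Of all 19436 genes, 23.2% were highest at 10 °C, 23.6% at 16 °C, 17.4% at 23 °C and 35.9% at 27 °C, and of members 21.0, 16.2, 25.7 and 37.1%. With the median of 3 libraries in place of the mean, the members' counts were 19, 13, 37 and 35 (18.1, 12.4, 35.2 and 33.3%), with 1 tied, and the shares of all genes were 23.3, 22.6, 19.3 and 34.8%. Members at 0 in all 3 libraries of a temperature numbered 14 at 10 °C, 4 at 16 °C, 4 at 23 °C and 7 at 27 °C, and of all 19436 genes 224, 140, 295 and 110 in the same order.

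The members' summed level was 318 to 384 CPM at 10 °C, 357 to 406 CPM at 16 °C, 443 to 503 CPM at 23 °C and 442 to 537 CPM at 27 °C. Without AT1G37057 and AT4G20365 the sum was 248 to 311, 283 to 295, 262 to 331 and 278 to 329 CPM in the same order, so the ranges of the other members overlapped at all temperatures. Each IP-Svi-0 library had counts at 57 to 80 of the 105 members.

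**Figure D4:**
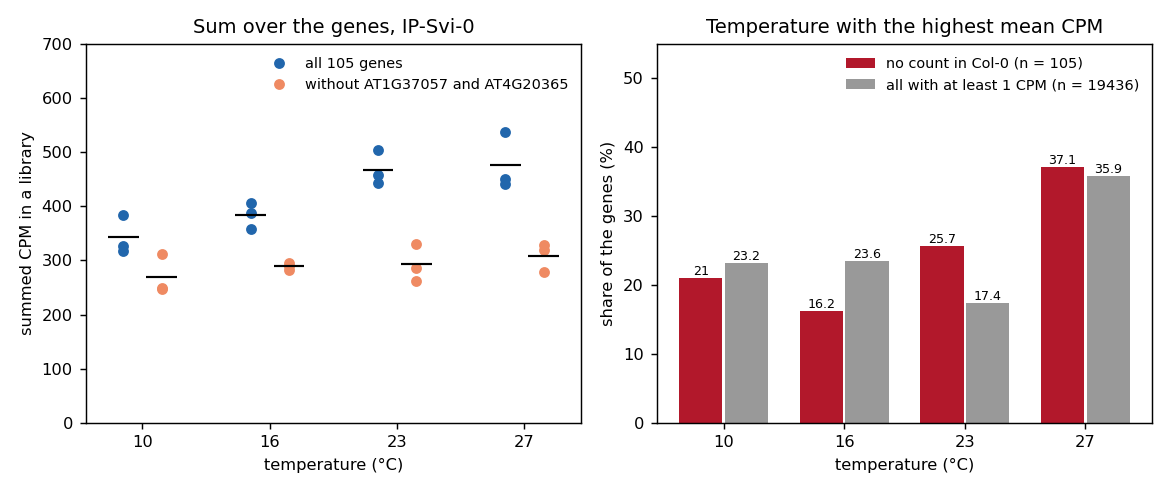
Left, summed CPM of the 105 genes in each IP-Svi-0 library and the sum without AT1G37057 and AT4G20365 (points; lines are means of 3), by temperature. Right, share in percent of the 105 genes and of all 19436 genes with at least 1 CPM in IP-Svi-0 whose mean CPM was highest at each temperature. The full sum is 443 CPM or more in the 23 °C libraries and at most 384 CPM in the 10 °C ones, while the ranges overlap without the 2 genes.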

How the data were processed

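The authors deposited raw read counts per gene for 24 libraries (33602 genes and 5 lines for unassigned reads). The submitters' processing notes name FastQC, HISAT2, HTSeq, Cufflinks, Cuffdiff and TAIR10, with versions, strand setting and multiple-read setting not given in the sources used here. Reads with more than 1 alignment are listed on a line of their own in the deposited table. The unassigned lines held 96.4 to 98.6% of reads and were left out, as were 279 organelle genes for CPM. CPM was the count scaled to nuclear gene counts of 1e6 per library.

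The members and lists were chosen with earlier results of these data known. All 105 members were matched by ID to the RefSeq annotation of TAIR10.1, as were 32835 of 33323 nuclear genes. Nearby coding genes were counted within 250 kb of a gene's centre. Copies were searched with blastn 2.17.0 (megablast). Accessions were not compared by a test for the members, since the rule used that contrast.

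Temperatures were tested with edgeR 4.0.16 in R 4.3.3 (all 24 libraries, 8 groups, TMM, filterByExpr with a minimum count of 10). Standard errors are the log2 difference over the root of F. The fit was tested on simulated counts for genes that passed the filter, at 10 against 23 °C in IP-Svi-0. It called 21.6% of 2-fold and 86.7% of 4-fold differences, and 5.36% of its calls were false. Alternatives included DESeq2 1.42.0. The genes named are the 20 of highest mean, those called, those with a symbol, those next to the limit, those within 20 kb of another member, and opposite-strand partners. Further genes were named after their values were seen, namely copies, neighbours, the transcribed pseudogenes, ASB1 and AT5G57890. So were members picked by product class, by level per kb or by their counts over temperature.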

Additional observations from a re-analysis of the deposited data

How the results depend on the processing

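The number of genes depended on the limits: 217 at 0.5 CPM, 51 at 2 CPM, 16 at 5 CPM, 168 with at most 1 Col-0 count, 391 with at most 3, 11 with a count in each IP-Svi-0 library, and 99 to 117 when 1 library was left out. At 5 CPM, 50% were on chromosome 5 and 0% overlapped an exon on the other strand, against 23.4 and 33.5% of all genes at that level. Any aligned copy was found for 26.7% of the 105, and a copy of 50% of the exon bases for 6.25% of those at 5 CPM or more, both chosen after seeing the data. Any difference among temperatures was called for 5 members with no filter and for 5 at 1 CPM, which test more genes. Of all genes, 1911 of 24758 were called with no filter and 1775 of 19541 at 1 CPM. DESeq2 with the 1 CPM filter called 3 members and 1403 of all 19541 genes, with no adjusted p for PCR1 (unadjusted p = 0.00837) and AT2G12290 (unadjusted p = 0.0557). Leaving out 1 library gave 1 to 2 members called for any difference, 1 to 2 at 10, 0 to 1 at 16 and 0 at 27 against 23 °C, and with the 1 CPM filter 3 to 6, 1 to 3, 0 to 1 and 0. The same fits called 1020 to 2055, 843 to 1809, 24 to 129 and 0 to 5 of all genes tested. With the 1 CPM filter these were 1081 to 2158, 764 to 1759, 38 to 133 and 0 to 15 of 19541 genes. For AT1G37057 at 27 against 23 °C the sign turned to a log2 difference of 0.01 without a filter, and leaving out 1 library gave -0.23 to 0.24. The cause was not tested. Deviations from the group means had correlations of -0.343 to 0.304 in 18 same-numbered pairs of IP-Svi-0 libraries. In 36 other-numbered pairs they were -0.303 to 0.292. The labels do not say whether the numbers pair libraries, and deviations from means of 3 libraries cannot decide it. With the replicate number as a block 2, 2, 1 and 0 members were called, and with the 1 CPM filter 4, 3, 1 and 0, where AT2G12290 had an adjusted p of 0.0612 (edgeR). Of all genes, the block called 1640, 1590, 84 and 3 of 10097, and with the 1 CPM filter 1785, 1545, 98 and 7 of 19541. The block, DESeq2 and single-library fits with the 1 CPM filter were added after seeing the data. DESeq2 gave no adjusted p for AT4G20365 at 16 against 23 °C (unadjusted p = 0.000424) or, with the 1 CPM filter, for AGL36 at 10 against 23 °C (log2 difference 2.77, unadjusted p = 0.0177). With a median of 15 counts per gene, depth limits every temperature comparison.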
